A study of Rattus norvegicus with 3 samples.

Results

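Retinal ganglion cell genes were followed in neonatal rat retina after intravitreal streptozotocin (STZ), a nitrosourea-sugar compound that alkylates DNA. The group holds 10 genes chosen by name from 18425 in the table, namely Atoh7, Pou4f1, Pou4f2, Pou4f3, Isl1, Rbpms, Sncg, Nefl, Nefm and Thy1, and all 10 were found. Wild-type Sprague Dawley rats received 1 µl into the vitreous at postnatal day 1 (P1), and the dissected retina was taken at P4. The 3 groups were citrate buffer of pH 4.5, saline, and 10 µg of STZ, which had been dissolved in the citrate buffer. Each group is 1 library, so no difference has a replicate check and no p-value was computed. The sources used here do not give the number of retinas or animals in a library. In other experiments of the study buffer was given to the fellow eye of an STZ-treated eye, and whether the STZ and buffer libraries are related in this way is not given either. The retina was not sorted, so fewer cells of a type and less RNA per cell cannot be told apart.

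Ganglion cells are the output neurons of the retina, and their axons form the optic nerve. They are the first retinal neurons to be born, and in rodents most are postmitotic by birth. Atoh7, a basic helix-loop-helix (bHLH) factor, makes progenitors competent to form them, the LIM-homeodomain factor Isl1 and the POU-homeodomain factors Pou4f1 to Pou4f3 (Brn3a to Brn3c) drive and maintain their differentiation, and the other 5 genes belong to the differentiated cell. The design asks whether transcripts of this early-born cell type differed after an agent given when late progenitors were still dividing.

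The libraries held between 21977843 and 22031249 estimated reads. Differentiated ganglion cell transcripts were present in all 3 libraries, while Atoh7 was at the limit of detection, with 3 reads in buffer, 3 in saline and 1 in STZ. A value at or under 3 reads was given no fold. The exact Poisson interval (95%) reached 8.77 reads in either control and 5.57 in STZ, so no difference in Atoh7 was detectable at this depth. The counts of all 10 genes were whole numbers in all 3 libraries. Intervals here and below cover counting error only, since reads were counted without molecular identifiers and copies of 1 molecule cannot be told from separate molecules.

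Levels between genes were compared in FPKM, fragments scaled by transcript length and library size. Sncg, which encodes gamma-synuclein, a small protein abundant in ganglion cell axons, had the highest FPKM, with a buffer level of 118, a saline level of 107 and an STZ level of 133. Thy1, a surface glycoprotein anchored by a lipid, came next. Nefl and Nefm, the light and medium neurofilament subunits of the axon, followed, and then Rbpms, an RNA-binding protein used as a marker of all ganglion cells. The transcription factors were lower, in the order Isl1, Pou4f1, Pou4f2, Pou4f3 and Atoh7. This order was the same in the 3 libraries. Counting intervals of neighbours overlapped for Isl1 and Pou4f1 in saline and STZ, and for Pou4f3 and Atoh7 in buffer and saline, and for no other pair. In buffer, Sncg ranked 682 of 18425 genes by FPKM, and Pou4f3 ranked 12000.

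**Figure D1:**
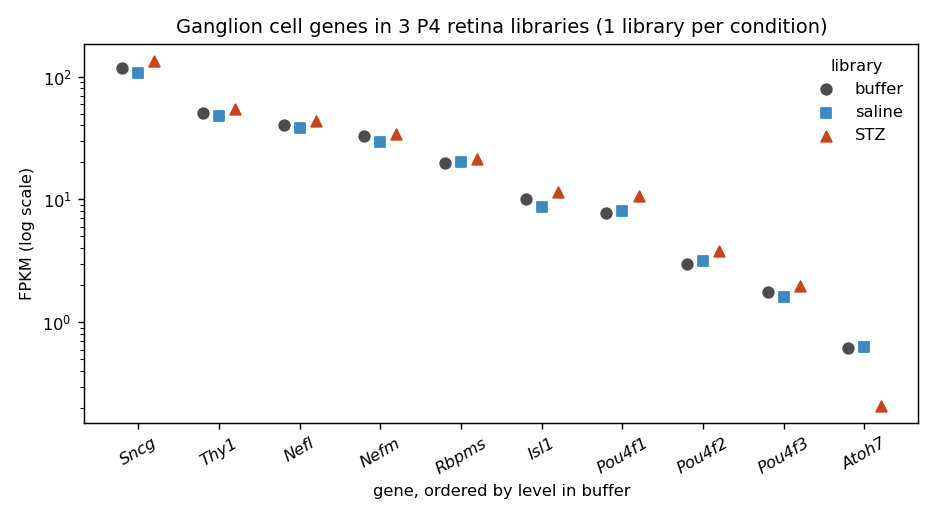
FPKM of the 10 ganglion cell genes (log scale) in the buffer, saline and STZ libraries, 1 point per library. The genes span from 118 for Sncg to 0.62 for Atoh7 in buffer, and the STZ triangle is the highest of the 3 points for every gene but Atoh7, which had 3 reads or fewer throughout.

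By the fold rule of the study's methods, a ratio of FPKM + 1 between libraries whose log2 is above 0.62 or below -0.62, no ganglion cell gene was called in STZ against buffer, STZ against saline or saline against buffer. Over all 18425 genes, 2.25% were above and 1.04% below the thresholds in STZ against buffer, 2.04% and 1.75% in STZ against saline, and 1.0% and 0.429% in saline against buffer. The 9 genes other than Atoh7 had their highest FPKM in the STZ library, where 44.1% of the 14885 genes with a mean of at least 10 reads did. All 9 were above buffer and all 9 above saline, beside 56.0% and 52.1% of those genes, and 6 of the 9 were also lowest in saline, beside 23.4%. Their folds lay between 1.02 and 1.33 against buffer and between 1.06 and 1.30 against saline. After rescaling with the TMM factors of edgeR or the size factors of DESeq2, 8 of the 9 were above buffer, with Nefm at 0.996 by TMM and 0.998 by DESeq2, and all 9 above saline. The median log2 fold of the 9 was 0.10 against buffer and 0.20 against saline, beside 0.03 and 0.01 for all genes of that depth.

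Each gene was also given a count ratio, its fraction of the reads in one library over its fraction in the other, with a 95% counting interval by the exact Clopper-Pearson method. In STZ against buffer the interval lay above 1 for 5 of the 9 genes and below 1 for 0, where 26.2% and 18.8% of all genes with a mean of at least 10 reads did. Against saline it lay above 1 for 7 of the 9 and below 1 for 0, where 26.9% and 23.5% of all genes did. It lay above 1 against both controls for 4 of the 9, Pou4f1, Rbpms, Sncg and Nefl, beside 19.4% of all genes. Both comparisons share the STZ library. In saline against buffer, 2 control libraries, the central 95% of the ratios of 12813 genes with a mean of at least 50 reads ran from 0.786 to 1.41. All 9 ratios in STZ against buffer and all 9 in STZ against saline lay within that range. Most genes of that depth did too, so this does not set the 9 apart. Their 5th and 95th percentiles were 0.763 and 1.41 in STZ against buffer, and 0.711 and 1.43 in STZ against saline.

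**Figure D2:**
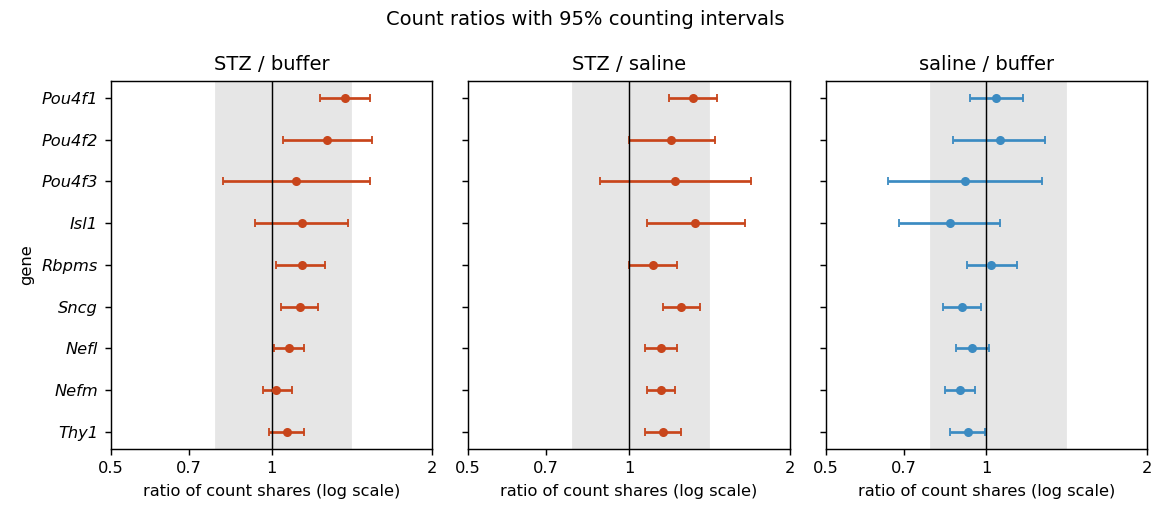
Count ratio (log scale) with its 95% counting interval for 9 ganglion cell genes in the 3 comparisons, with the central 95% of saline to buffer ratios over 12813 genes shaded in grey. Every point lies inside the grey range, where most genes with a mean of at least 50 reads also lie. Pou4f1 comes nearest to its upper edge at 1.37 in STZ against buffer, and 7 of 9 intervals lie above 1 in STZ against saline.

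Of the 9 genes, Pou4f1 gave the largest count ratio against buffer and the next largest, after Isl1, against saline. This POU4F factor is found in most ganglion cells, and it had 606 reads in buffer, 631 in saline and 833 in STZ, or an FPKM of 7.78, 8.11 and 10.68. STZ was above both controls, which differed by less than counting error, with a ratio of 1.04 (0.931 to 1.17). Its ratio in STZ was 1.37 against buffer (1.23 to 1.53) and 1.32 against saline (1.19 to 1.46). By its fold of 1.33 against buffer it stood above 94.2% of the genes with a mean of at least 10 reads, and by 1.28 against saline above 91.5%. Pou4f2, the first of the family to be switched on in newborn ganglion cells, was read 197 times in buffer, 208 in saline and 251 in STZ. Its ratio was 1.27 against buffer (1.05 to 1.5), but the interval held 1 against saline, at 1.20 (0.998 to 1.45). Pou4f3 had 79, 72 and 88 reads. Both its intervals against controls held 1, from 0.811 to 1.53 and from 0.883 to 1.69, so a difference within these bounds would not be seen at this depth.

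The family's makeup was close in the 3 libraries. Pou4f1 made up 62.0% of the summed POU4F FPKM in buffer, 62.9% in saline and 64.9% in STZ. Pou4f2 made up 24.0%, 24.7% and 23.2%, and Pou4f3 14.0%, 12.5% and 11.9%. The reads of the 3 genes summed to 882, 911 and 1172. The summed ratio was 1.33 in STZ against buffer (1.21 to 1.45), 1.28 against saline (1.18 to 1.40) and 1.03 in saline against buffer (0.941 to 1.14).

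The 250 bases before the annotated starts of the POU4F genes are shown, read from RefSeq's promoter table for GRCr8, 5′ to 3′ on the gene's strand. Being highest in STZ by FPKM was not particular to this family, as it held for all 9 genes other than Atoh7. Capitals mark E-boxes, CANNTG on either strand, the letters that bHLH factors such as ATOH7 bind. The windows are chr15:87674644-87674893 (minus strand) for Pou4f1, chr19:46390708-46390957 (plus strand) for Pou4f2 and chr18:34640941-34641190 (plus strand) for Pou4f3.
Pou4f1: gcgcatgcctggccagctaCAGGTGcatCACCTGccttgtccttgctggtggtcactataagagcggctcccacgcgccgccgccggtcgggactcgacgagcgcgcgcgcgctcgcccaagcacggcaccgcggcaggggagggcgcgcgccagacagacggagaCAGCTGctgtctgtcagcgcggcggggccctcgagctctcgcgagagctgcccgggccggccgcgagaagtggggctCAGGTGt
Pou4f2: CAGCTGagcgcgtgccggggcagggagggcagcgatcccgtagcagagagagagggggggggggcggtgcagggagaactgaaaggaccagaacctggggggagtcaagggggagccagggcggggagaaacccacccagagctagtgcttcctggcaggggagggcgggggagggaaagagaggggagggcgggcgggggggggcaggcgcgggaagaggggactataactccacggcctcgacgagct
Pou4f3: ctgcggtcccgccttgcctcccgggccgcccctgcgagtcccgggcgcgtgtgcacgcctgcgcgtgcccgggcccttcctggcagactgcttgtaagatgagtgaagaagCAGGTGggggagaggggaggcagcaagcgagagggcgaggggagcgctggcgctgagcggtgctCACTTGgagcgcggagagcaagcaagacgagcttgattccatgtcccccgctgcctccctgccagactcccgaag
Pou4f1 held 4 E-boxes, Pou4f3 held 2 and Pou4f2 held 1, at the far end of its window. At least 1 E-box was in 65.5% of 33469 promoter windows of this length, and 3.20% held 4 or more. The windows were 72.4%, 70.4% and 69.2% GC for Pou4f1, Pou4f2 and Pou4f3, against a median of 51.2% over all windows. The homeodomain core TAAT, searched on both strands, was in none of the POU4F windows and in 57.0% of all windows. A match of letters is not a site, and these windows say nothing of which factor was bound. The table matched 6 of the 10 genes by gene identifier.

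Isl1 acts with Pou4f2 in newborn ganglion cells and is also used by ON bipolar and cholinergic amacrine cells. It had 185 reads in buffer, 158 in saline and 211 in STZ, lowest in the saline library, and the STZ interval held 1 against buffer, at 1.14 (0.930 to 1.39), but not against saline, at 1.33 (1.08 to 1.65). The 8 bipolar cell markers summed to 19973, 18557 and 19346 reads, also lowest in saline, with 0 of the 8 listed at 0 in any library. Otx2, which photoreceptors also use, held 13357 of the buffer reads. Grm6, the glutamate receptor of ON bipolar cells, had 3027, 2563 and 3823 reads, lowest in saline and highest in STZ as for Isl1. Cabp5 showed the same order, at 279, 245 and 375 reads. The other listed bipolar markers did not. Among them, Trpm1 had 13, 213 and 19 reads, highest in saline, and Lhx4 had 934, 932 and 715, lowest in STZ. Chat, of the amacrine list, had 151, 126 and 143 reads, lowest in saline but highest in buffer. The part of these cells in the Isl1 values was not tested.

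Genes of the differentiated cell differed less than Pou4f1. Sncg had 1229 reads in buffer, 1105 in saline and 1389 in STZ. STZ was the highest and saline the lowest, and all 3 ratios had intervals without 1. They were 1.13 in STZ against buffer (1.04 to 1.22), 1.25 against saline (1.16 to 1.36) and 0.900 in saline against buffer (0.829 to 0.977). The control libraries thus differed from each other for Sncg beyond counting error.

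Nefl was read 1602 times in buffer, 1505 in saline and 1729 in STZ, a ratio of 1.08 against buffer (1.01 to 1.15) and 1.15 against saline (1.07 to 1.23). Nefm had 2049, 1826 and 2103 reads. Its STZ and buffer values differed by less than counting error, with a ratio of 1.02 (0.964 to 1.09). Against saline the Nefm ratio was 1.15 (1.08 to 1.22), and saline itself was below buffer at 0.892 (0.837 to 0.950). The FPKM of Nefl was 1.23 times that of Nefm in buffer, 1.30 times in saline and 1.29 times in STZ.

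Thy1 had 1401 reads in buffer, 1292 in saline and 1496 in STZ. It showed the same order as Sncg and Nefm, with a ratio of 1.07 in STZ against buffer (0.990 to 1.15), 1.16 against saline (1.07 to 1.25) and 0.923 in saline against buffer (0.855 to 0.996). T cells also use Thy1. The 3 T cell and leukocyte markers measured, Cd4, Cd8a and Ptprc, summed to 169, 214 and 320 reads. Cd8a had only 1, 3 and 10 of these, and Cd3e, Cd3d and Cd3g were not among the listed genes. The sum thus rests on Cd4 and Ptprc and does not single out T cells, whose part was not tested.

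Rbpms had 681, 696 and 775 reads, a ratio of 1.14 against buffer (1.02 to 1.26) and 1.11 against saline (1.00 to 1.23, above 1 before rounding). Its FPKM of 19.9, 20.0 and 21.3 gave smaller folds, 1.06 against each control. The reads per unit of FPKM differed by 6.45% between libraries for Rbpms and by under 2% for the other 9 genes, so the authors' length for Rbpms was not the same in each library. This was so, at a tolerance of 2%, for 17.0% of 9944 genes with an FPKM of at least 5. Smooth muscle and pericytes also express Rbpms. Their 8 markers summed to 703 reads in buffer, 596 in saline and 605 in STZ, with Cnn1 at 0 in saline and STZ. These markers did not share a direction. The smooth muscle genes Myh11 and Tagln had ratios of 1.28 (1.10 to 1.49) and 2.06 (1.08 to 4.11) in STZ against buffer, while Acta2 had one of 0.281 and the pericyte genes Pdgfrb and Rgs5 had ratios of 0.364 and 0.407. Their part in the Rbpms values was not tested.

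Between the controls, 3 of the 9 genes were higher in saline by FPKM, beside 54.7% of all genes, and 6 were lower, or 7 after TMM or DESeq2 scaling, and their median log2 fold was -0.09 beside 0.02 for all genes of that depth. The interval lay below 1 for Sncg, Nefm and Thy1 and above 1 for 0 of the 9, where 12% and 15.9% of all genes did. The pigment, ciliary and iris epithelium markers, 10 in number, summed to 2661 reads in buffer, 9717 in saline and 2759 in STZ, with Rpe65 at 0 in buffer. The part of this tissue in the lower saline values was not tested.

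Other neuronal, axonal and transmitter genes of ganglion cells, 22 in number and shared in part with amacrine and other neurons, were mostly higher in STZ. None passed a threshold in STZ against buffer, and 19 of 22 had a higher FPKM in STZ, 18 with TMM or DESeq2 scaling, beside 56.0% of all genes with a mean of at least 10 reads. The median log2 fold was 0.14 against buffer and 0.21 against saline. Elavl4, a neuronal RNA-binding protein, had 688 reads in buffer, 558 in saline and 971 in STZ, with folds of 1.36 over buffer and 1.63 over saline, past the threshold in the latter. Cntn2, an axonal adhesion molecule, had 488, 501 and 677 reads, and folds of 1.32 over buffer and 1.20 over saline. The most abundant, Tubb3 and Uchl1, a neuronal tubulin and a ubiquitin hydrolase, had folds of 1.06 and 1.08 against buffer. Chrnb3, a nicotinic receptor subunit, and Opn4, the melanopsin of light-sensitive ganglion cells, were lowest, both at 0.983.

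Other transcription factors of ganglion cells went both ways, in a split close to that of all genes. Of 22, 0 passed a threshold. Of the 21 with a mean of at least 10 reads, 12 had a higher FPKM in STZ than in buffer and 9 a lower one. Among all genes of that depth, 56.0% were higher. The median log2 fold of the list was 0.06, beside 0.03 for all genes. Isl2, a LIM-homeodomain factor of a part of the ganglion cells, was read 90 times in buffer, 94 in saline and 144 in STZ, for a fold of 1.49 and a ratio of 1.60 (1.22 to 2.10). Ebf1 had 368, 383 and 494 reads, at a fold of 1.24. Sox11 and Irx3 were lowest. Sox11, which works with Sox4 in newborn neurons of many kinds, had 849, 861 and 560 reads, at a fold of 0.673. Irx3 had 104, 103 and 70 reads, at a fold of 0.735. Sox4, the most abundant of the list, had a fold of 0.857, and Myt1 of 1.10.

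Regulators of ganglion cell production, progenitor factors and signals that set how many ganglion cells form, were mostly lower in STZ. Of 14 genes, 10 had a lower FPKM in STZ than in buffer and 4 a higher one, or 11 and 3 with TMM or DESeq2 scaling. Of all genes with a mean of at least 10 reads, 56.0% had a higher FPKM. The median log2 fold was -0.28 against buffer and -0.22 against saline, beside 0.03 and 0.01 for all genes of that depth. Dll1, a Notch ligand, had 2765 reads in buffer, 2999 in saline and 1561 in STZ. Its fold was 0.573 over buffer and 0.529 over saline, past the lower threshold against both controls. Neurog2, a bHLH activator of Atoh7, passed it against saline, at 0.593, and had a fold of 0.668 over buffer. Pax6, at an FPKM of 264 in buffer the second most abundant after Neurod1, had a fold of 1.02. Gdf11 and Shh, secreted factors that restrain ganglion cell production, had folds of 1.18 and 1.16 against buffer, and of 1.12 and 0.980 against saline.

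Injury and survival genes did not share a direction. Of the 15 measured, 2 were past the upper and 1 past the lower threshold in STZ against buffer, beside 2.25% and 1.04% of all genes. The median log2 fold was 0.08. Gal, which encodes the neuropeptide galanin, was read 345 times in buffer, 312 in saline and 718 in STZ, for folds of 2.04 over buffer and 2.24 over saline. Bbc3 and Bcl2l11, proapoptotic members of the Bcl2 family, had folds of 1.92 and 0.542 over buffer, and the second of these was no longer past the threshold with CPM, counts scaled to a common library total, in place of FPKM, at a fold of 0.652. Jun, induced in ganglion cells by axon injury, had 2184 reads in buffer, 1677 in saline and 1693 in STZ, so buffer was above both, and STZ and saline were close. Bax and Cntfr, the most abundant of the list, had folds of 1.24 and 0.938.

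**Figure D3:**
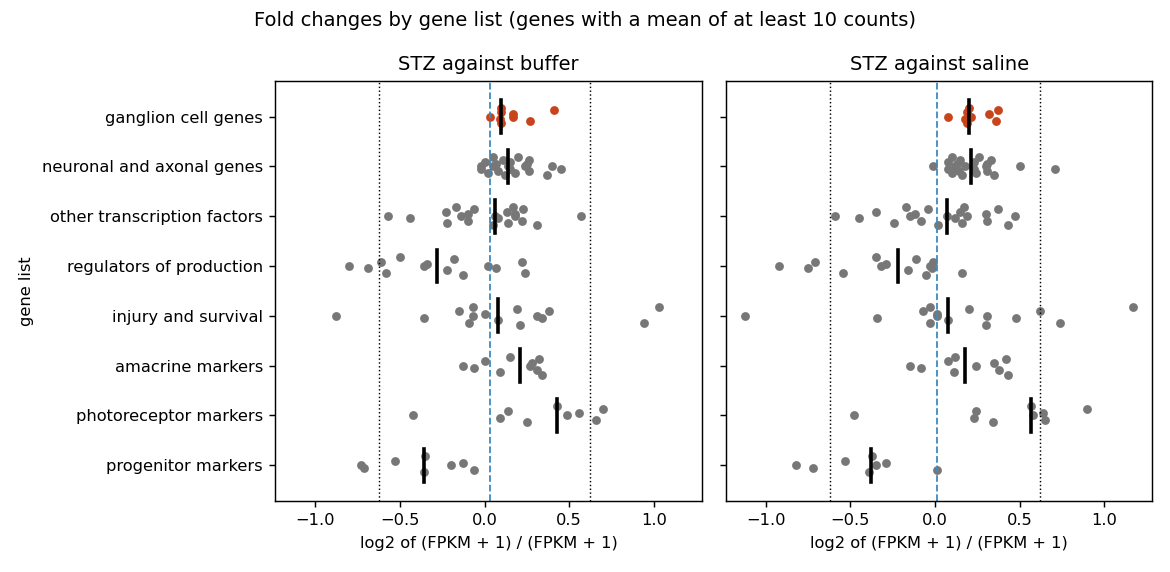
Log2 of (FPKM + 1)/(FPKM + 1) for genes with a mean of at least 10 reads in 8 lists, in STZ against buffer (left) and STZ against saline (right). Points are genes, black bars list medians, the dashed line the median of all genes and dotted lines the thresholds. The ganglion cell genes (orange) have a median of 0.10 and 0.20 and none passes a dotted line, while the progenitor markers have medians of -0.36 and -0.38.

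Summed reads of markers of several retinal cell types differed between the libraries in the same comparisons. Such sums are shares of RNA and do not count cells. The 8 progenitor markers summed to 67170 reads in buffer, 67915 in saline and 48112 in STZ, and all 8 were lower in STZ than in buffer by FPKM. The 10 ganglion cell genes summed to 8032, 7496 and 8876 reads, or 365, 341 and 403 in CPM, a summed ratio of 1.10 in STZ against buffer (1.07 to 1.14). Summed markers of other differentiated neurons were above buffer in STZ for amacrine cells and photoreceptors, and close to buffer for horizontal and bipolar cells. The 10 amacrine markers summed to 23424, 22428 and 27814 reads, a ratio of 1.19 (1.16 to 1.21), and the 9 photoreceptor markers to 28522, 26491 and 34822, a ratio of 1.22 (1.20 to 1.24). The 5 horizontal cell markers measured summed to 8677, 8179 and 8488 reads, a ratio of 0.977 (0.948 to 1.01), and the 8 bipolar markers had a ratio of 0.967 (0.948 to 0.986). These 2 sums do not stand for each marker. Prox1 and Tpm3 held 4297 and 3755 of the 8677 horizontal reads in buffer, so that sum rests mostly on them. By FPKM, 4 of the 5 horizontal markers were higher in STZ than in buffer, and Prox1 was lower, at a count ratio of 0.813. Of the 7 bipolar markers with a mean of at least 10 reads, 4 were higher, beside 56.0% of all genes. Otx2, with most of the bipolar reads, had a count ratio of 0.885. Reads are shares of a library, so a smaller progenitor share raises the shares of other transcripts. How far this bears on the ganglion cell values was not tested.

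Markers of glia, immune cells, lens and peripheral neurons also differed between the libraries. The 9 microglia markers summed to 1382 reads in buffer, 1679 in saline and 3711 in STZ, and the 10 lens markers to 291, 693 and 3461. The 6 markers of astrocytes, which lie beside ganglion cell axons, summed to 1143, 1186 and 555 reads, with Aldh1l1 at 0 in buffer and STZ. The 8 markers of peripheral neurons, which share Pou4f1, Isl1 and neurofilaments with ganglion cells, summed to 975, 957 and 1212, with Scn10a at 0 in buffer and saline and Dbh at 0 in saline. Of the 5 with a mean of at least 10 reads, Prph and Tac1 were higher in STZ than in buffer, with ratios of 1.28 (1.14 to 1.43) and 1.31 (1.13 to 1.53), and Trpv1, Calca and Th had ratios of 0.910, 0.755 and 0.809, each with an interval that held 1. The part of these cells in the values above was not tested.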

How the data were processed

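RNA of P4 rat retina was sequenced on an Illumina HiSeq after TruSeq library preparation, 1 library per group. The authors trimmed reads, mapped them with TopHat2 to the rat genome (rn6 per the submitters' processing notes), discarded reads with several locations, and computed FPKM with their own R script. The annotation is not given in the sources used here. They deposited FPKM, TPM and estimated read counts per gene. The deposited estimated counts were 12.9% to 13.2% fractional and were rounded to whole numbers for ratios and intervals. Where multi-location reads were discarded, the values of genes with close copies would be lowered. How the fractional counts arose was not tested.

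Folds, count ratios and intervals were computed in Python 3.11.15 with scipy 1.17.1, and scaling factors with edgeR 4.0.16 and DESeq2 1.42.0 in R 4.3.3. No count model could be fitted with 1 library per group. The calculations were tested on simulated data. The ganglion cell genes and the other lists were chosen with earlier results of these data known. Of each other list the text names genes past a threshold in STZ against buffer, the 2 highest and 2 lowest folds at a mean of at least 10 reads, and the 2 highest FPKM in buffer. Some genes that the rule names are not reported here. Neurog2, single markers of other cells and the genes of the closing section were named after their values were seen. Results were recomputed with a pseudocount of 0.1, with thresholds of 2 and 0.5, with a filter on low counts, after TMM or DESeq2 scaling, on CPM or TPM, by the counting interval, and with other choices of control.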

Additional observations from a re-analysis of the deposited data

How the results depend on the processing

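No paired analysis was possible because each group is 1 library, also if STZ and buffer were given to fellow eyes, and no library could be left out. The count of ganglion cell genes past a threshold was 0 in each comparison with thresholds of 2 and 0.5, a filter on low counts, TMM, DESeq2 or CPM. The stricter thresholds and the filter could not have raised a count of 0. With a pseudocount of 0.1 or TPM, 1 gene was lower in STZ against buffer and 1 against saline, Atoh7, which has 3 reads or fewer. With the counting interval as the rule, 5 were higher against buffer, 7 higher against saline, and 3 lower in saline against buffer. Of the other lists in STZ against buffer, by that rule, transcription factors gave 6 higher and 5 lower, neuronal genes 16 higher, regulators of production 2 higher and 10 lower, and injury genes 6 higher and 3 lower, where 26.2% of all genes were higher and 18.8% lower. A pseudocount of 0.1 gave 1 higher and 1 lower transcription factor, and TPM 1 higher. Thresholds of 2 and 0.5 gave 0 lower regulators of production, and 1 higher and 0 lower injury genes, and CPM gave 0 lower injury genes. The median log2 fold of the ganglion cell genes became 0.17 against buffer with CPM, and 0.26 against saline with a pseudocount of 0.1. Of 63 single-gene folds under alternatives, 61 were above 1, the other 2 being Nefm at 0.996 with TMM and 0.998 with DESeq2. Since STZ was highest by FPKM for these genes, some alternatives could only give folds above 1. These were the pseudocount of 0.1, saline as the control and the mean of both controls. Depth limits Atoh7 and Pou4f3 most.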

Other observations

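Genes that mark subtypes of ganglion cells were in the lists of transcription factors and neuronal genes and were singled out after their values were seen. Eomes, a factor of melanopsin ganglion cells, had 323 reads in buffer, 322 in saline and 342 in STZ, with an STZ to buffer ratio of 1.06 in counts (0.905 to 1.23), so the 3 libraries differed by less than counting error. Opn4, which the same cells use, had 95, 75 and 90 reads and a ratio of 0.946 (0.701 to 1.28). Tbr1, a factor of a further subtype, had 20, 27 and 28 reads, too few to bound a difference of 2-fold, at 1.40 (0.760 to 2.62). Foxp2 had 104 reads in buffer, 153 in saline and 91 in STZ, so the saline library was the highest, and the ratio of STZ to buffer was 0.873 (0.652 to 1.17).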
